A study of Homo sapiens with 12 samples.

Results

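The genes described here make, sense and move cholesterol and fatty acids: 38 of the 19923 genes listed in the count tables. They were taken by name and fall into 7 enzymes of the mevalonate steps, 11 enzymes that turn farnesyl diphosphate into cholesterol, 5 regulators of the SREBP transcription factors, 7 genes of sterol uptake, transport and efflux, and 8 enzymes of fatty acid and lipid synthesis. Polyadenylated RNA was sequenced from a pair of long-established human neuroblastoma lines, SK-N-BE2 and NGP, both labelled as wild type in genotype and as carrying amplified MYCN. Both were grown in RPMI with fetal bovine serum, which is itself a source of cholesterol. SK-N-BE2 cells received 12 µM and NGP cells 1 µM of STM2457 for 6 days, and the control cells of each line received DMSO for the same time. STM2457 is a small-molecule inhibitor of METTL3, the enzyme that places N6-methyladenosine on messenger RNA. Each of the 4 groups had 3 replicates. The labels do not say whether these were separate cultures, so the p-values measure only the spread between these samples. Each line had its own dose, so effects of line and of dose are mixed. The sample labels name no sequencing run. A run was inferred from the headers of the counts, which hold 1 for each line and 2 for both. If that reading is right, run is mixed in as well.

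Cholesterol is built from acetyl-CoA. The mevalonate enzymes make farnesyl diphosphate, which is joined into squalene, closed into lanosterol and trimmed to cholesterol. When membrane sterol falls, SCAP escorts the SREBP precursors out of the endoplasmic reticulum, and the cleaved SREBP2 and SREBP1 proteins turn on sterol and fatty acid enzymes. INSIG proteins hold SCAP back when sterol is plentiful, while the LXR receptors, which sense oxysterols, turn on efflux pumps such as ABCA1 and ABCG1.

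The libraries held 47242379 to 58159937 assigned reads, and all 38 genes passed the filter on low counts in both lines. RNA of METTL3 itself was higher with STM2457 in both lines, at log2 fold changes of 0.52 ± 0.08 (SE, adjusted p = 0.000106) in SK-N-BE2 and 0.92 ± 0.11 (adjusted p = 0.0003) in NGP, which does not measure the enzyme's activity. Of the neuroblastoma markers, PHOX2A, HAND2, GATA3, ISL1, DBH and MYCN were present in both lines, while TH was nearly absent from NGP (0.512 CPM, reads scaled to a common library size, with DMSO) and present in SK-N-BE2 (234 CPM). Among markers of other cell types, PTPRC and PECAM1 had 0 reads in NGP and at most 1.29 and 1.80 CPM in SK-N-BE2, and EPCAM was at most 2.45 CPM in every library. PDGFRB, a fibroblast and pericyte marker, went from a mean of 29.6 to 141 CPM in NGP and from 38.6 to 49.3 CPM in SK-N-BE2. The summed level of these 4 markers was 27.6 to 35.2 CPM with DMSO and 136 to 152 CPM with STM2457 in NGP, and 35.7 to 45.6 and 50.7 to 53.7 CPM in SK-N-BE2. That sum was nearly all PDGFRB, which with STM2457 was 141 of a mean of 142 CPM in NGP and 49.3 of 52.2 CPM in SK-N-BE2. The part of such cells in the results was not tested. The first NGP DMSO library stood apart: against the other NGP controls its genes under 2 kb of exon length were higher (median log2 ratio 0.53) and those over 6 kb lower (-0.23). Results that turn on that library are given with and without it.

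With STM2457, most of these genes rose in both lines. In SK-N-BE2, 28 of 38 were called higher and 5 lower by edgeR's quasi-likelihood test at an adjusted p under 0.05, where 26.9% of all 14013 genes tested were called higher and 27.8% lower (54.7% in all). In NGP, 23 of 38 were called higher and 5 lower, where 19.4% and 22.2% of all 13610 genes tested were (41.7% in all). Without the first NGP control, 25 were called higher and 7 lower, where the shares over all genes were 27.6% and 29.7%. All STM2457 libraries lay above all controls for 30 of the 38 genes in SK-N-BE2, against 33.2% of all genes tested, and below them for 5, against 29%. For NGP these numbers were 24 genes above, against 28.4%, and 6 below, against 26.2%. In bulk RNA, fewer cells of a kind and less RNA per cell cannot be told apart. The median log2 fold change of the 38 was 0.79 (SK-N-BE2) and 0.64 (NGP), against -0.02 and -0.03 over all genes tested. The same 21 genes were called higher in both lines and 4 lower in both (ABCA1, ABCG1, SREBF1 and TM7SF2). These are counts only, because the share of all genes called the same way in both lines is not given here. Whether they exceed that background was not tested. EBP, INSIG2 and NPC1 were called in neither line.

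**Figure D1:**
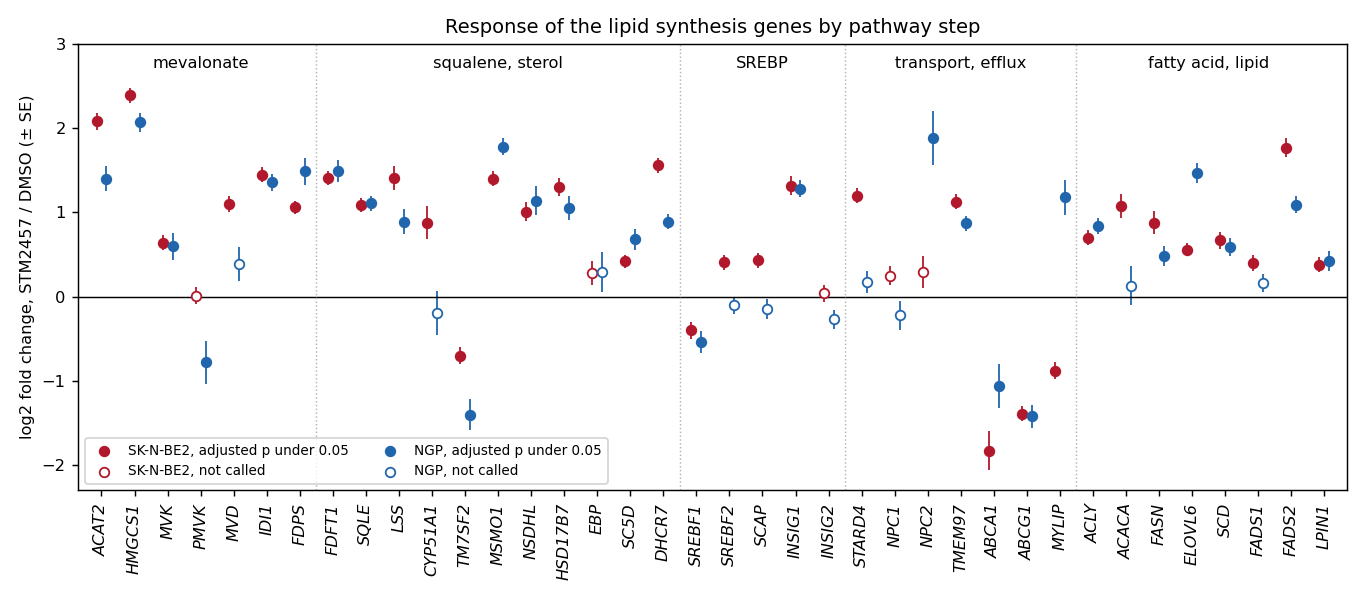
Log2 fold change of each gene with STM2457 against DMSO, from the edgeR fit of each line (SK-N-BE2 red, NGP blue; bars are ± SE, n = 3 libraries a group), in pathway order from left to right; filled points had an adjusted p under 0.05. Most enzymes lie above 0 in both lines, HMGCS1 highest at 2.39 and 2.07, while TM7SF2, SREBF1, ABCA1 and ABCG1 lie below 0 in both.

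The mevalonate steps showed the largest median change. In SK-N-BE2, 6 of the 7 enzymes rose and 0 fell (median log2 fold change 1.10), and in NGP 5 rose and 1 fell (median 1.36). Their summed level went from 318 ± 9.20 CPM (SD, n = 3) with DMSO to 862 ± 4.34 with STM2457 in SK-N-BE2. The NGP sums were 338 ± 54.7 and 922 ± 42.5 CPM. Beside the counts of these enzymes, 26.9% of all genes tested for SK-N-BE2 were called higher and 27.8% lower. The NGP shares were 19.4% and 22.2%.

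HMGCS1 (chr5:43287470-43313512 on GRCh38, minus strand), the cytosolic synthase that condenses acetyl-CoA with acetoacetyl-CoA into HMG-CoA, changed the most of the 38 genes in both lines. It measured 59.9, 54.4 and 52.8 CPM in the SK-N-BE2 control libraries and 288, 314 and 294 CPM with STM2457, a 5.23-fold rise (log2 2.39 ± 0.09 SE, adjusted p = 2.91e-10). In NGP it went from 54.4, 68.3 and 65.2 CPM to 269, 258 and 275 CPM, a 4.19-fold rise (2.07 ± 0.11, adjusted p = 9.32e-06). The treated libraries of the 2 lines thus lay near each other, far above all controls. On the other strand a long noncoding RNA shares 37.7% of the HMGCS1 exon length, and the counting took no account of strand, so some of these reads may belong to it.

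ACAT2, the cytosolic thiolase that makes acetoacetyl-CoA, came next in SK-N-BE2. Its level rose there from 17.2, 17.3 and 14.4 CPM to 69.7, 71.4 and 70.9 CPM (log2 2.08 ± 0.10, adjusted p = 3.08e-09). NGP started higher, at 38.3, 28.2 and 27.9 CPM, and reached 90.7, 73.7 and 88.6 CPM (1.40 ± 0.15, adjusted p = 0.000235). Control and treated values did not overlap in either line. The level of ACAT2 is uncertain, because 22.2% of its exon length is shared with TCP1 and SOD2 on the other strand.

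The middle steps, in which 2 kinases and a decarboxylase turn mevalonate into isopentenyl diphosphate, were uneven. Mevalonate kinase, MVK, rose in SK-N-BE2 from 29.1, 26.3 and 31.3 CPM to 46.6, 44.1 and 48.2 CPM (log2 0.64 ± 0.09, adjusted p = 6.29e-05). In NGP it rose from 19.3, 12.9 and 14.8 CPM to 23.2, 24.6 and 24.7 CPM (0.60 ± 0.16, adjusted p = 0.0149). In NGP the call did not survive leaving out the third DMSO library (adjusted p = 0.0596) or the third STM2457 library (adjusted p = 0.0555). PMVK, the phosphomevalonate kinase of the next step, did not follow. Its SK-N-BE2 libraries overlapped, with means of 37.4 ± 3.62 and 38.5 ± 1.98 CPM (log2 0.01 ± 0.10, adjusted p = 0.966). In NGP it fell from 33.4, 15.8 and 17.6 CPM to 13.3, 13.2 and 13.1 CPM (-0.78 ± 0.26, adjusted p = 0.0417). Much of that fall lay in the first control library, without which the change was -0.36 (adjusted p = 0.0122), and without any 1 STM2457 library the call was lost (adjusted p 0.104 to 0.121). MVD, the decarboxylase, rose in SK-N-BE2 from 28.2, 28.2 and 33.5 CPM to 67.4, 61.1 and 68.8 CPM (1.10 ± 0.10, adjusted p = 8.36e-07). Its NGP values of 41.3, 24.4 and 25.5 CPM with DMSO and 40.2, 43.1 and 38.4 CPM with STM2457 overlapped through the first control (0.39 ± 0.20, adjusted p = 0.143), and without that library MVD was called higher (0.67, adjusted p = 0.000119).

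The last mevalonate steps rose in both lines. IDI1, the isomerase that makes dimethylallyl diphosphate, went from 34.9, 32.8 and 28.2 CPM to 89.0, 92.1 and 88.6 CPM in SK-N-BE2 (log2 1.45 ± 0.09, adjusted p = 5.33e-08). Its NGP values were close to these, with 36.2, 32.8 and 33.9 CPM against 93.7, 85.9 and 89.8 CPM (1.36 ± 0.10, adjusted p = 3.22e-05). FDPS, which makes farnesyl diphosphate, rose from 114, 126 and 114 CPM to 259, 248 and 250 CPM in SK-N-BE2 (1.06 ± 0.08, adjusted p = 2.78e-07). FDPS in NGP rose from 178, 116 and 129 CPM to 421, 374 and 412 CPM (1.49 ± 0.16, adjusted p = 0.000193). Processed pseudogenes of FDPS and IDI1 and antisense RNAs over 18.6% and 14.8% of their exon length make both levels uncertain.

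Of the 11 enzymes from squalene synthesis to cholesterol, 9 rose and 1 fell in SK-N-BE2, and 8 rose and 1 fell in NGP (median log2 fold changes 1.09 and 0.89). Their summed level went from 514 ± 15.4 to 1111 ± 20.1 CPM in SK-N-BE2. For NGP the sums were 378 ± 28.5 and 800 ± 11.5 CPM. The shares of all genes called higher and lower were 26.9% and 27.8% for SK-N-BE2. They were 19.4% and 22.2% for NGP.

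FDFT1, squalene synthase, commits farnesyl diphosphate to sterols. It rose from 95.9, 99.9 and 87.6 CPM to 259, 262 and 250 CPM in SK-N-BE2 (log2 1.41 ± 0.08, adjusted p = 2.59e-08). In NGP it rose from 109, 79.1 and 84.0 CPM to 268, 246 and 264 CPM (1.49 ± 0.13, adjusted p = 8.16e-05). SQLE, the squalene epoxidase often described as a second rate-limiting step, had nearly the same levels in the 2 lines. It measured 82.4, 85.3 and 79.1 CPM, then 177, 183 and 179 CPM in SK-N-BE2 (1.09 ± 0.08, adjusted p = 1.3e-07). The NGP values were 82.1, 81.0 and 84.7 CPM, then 182, 184 and 177 CPM (1.11 ± 0.09, adjusted p = 4.18e-05). LSS, which closes the ring to lanosterol, rose in SK-N-BE2 from 26.6, 16.8 and 24.9 CPM to 67.5, 57.9 and 60.3 CPM (1.41 ± 0.14, adjusted p = 2.57e-06). The same step in NGP rose from 29.8, 40.5 and 42.4 CPM to 69.5, 76.7 and 66.6 CPM (0.89 ± 0.15, adjusted p = 0.0018).

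Lanosterol is then stripped of methyl groups. CYP51A1, the first demethylase, was counted at only 3.85, 2.19 and 3.71 CPM in the SK-N-BE2 controls and 6.56, 6.07 and 5.84 CPM with STM2457 (log2 0.88 ± 0.20, adjusted p = 0.00187). Its NGP libraries overlapped, at 4.39 ± 0.952 and 3.92 ± 1.18 CPM (-0.19 ± 0.26, adjusted p = 0.591). These low counts are uncertain, because 80.6% of its exon length is also listed under 2 other counted genes on the same strand, where a read cannot be given to 1 gene. MSMO1 (chr4:165327667-165343164, plus strand), the sterol methyl oxidase, had the largest NGP change of the sterol enzymes, from 16.9, 17.3 and 18.4 CPM to 58.4, 60.6 and 63.9 CPM (1.78 ± 0.10, adjusted p = 1.06e-05). SK-N-BE2 held more of it, with 42.2, 48.6 and 43.6 CPM against 121, 130 and 112 CPM (1.40 ± 0.09, adjusted p = 5.68e-08). NSDHL, the dehydrogenase that works with it, rose from 21.8, 28.6 and 23.3 CPM to 53.3, 49.6 and 49.4 CPM in SK-N-BE2 (1.01 ± 0.11, adjusted p = 5.15e-06) and from 17.9, 12.3 and 12.0 CPM to 32, 29.3 and 33.6 CPM in NGP (1.14 ± 0.17, adjusted p = 0.00106). HSD17B7, the ketoreductase of the same complex, which has 2 pseudogenes, rose from 6.83, 6.70 and 7.19 CPM to 18.7, 17.8 and 16.1 CPM in SK-N-BE2 (1.30 ± 0.11, adjusted p = 6.14e-07). Its NGP libraries rose from 19.1, 13.9 and 15.4 CPM to 33.8, 31.4 and 36.5 CPM (1.05 ± 0.14, adjusted p = 0.00069).

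TM7SF2, which reduces the sterol double bond that CYP51A1 leaves behind, was the only 1 of these 11 enzymes called lower, and it fell in both lines. SK-N-BE2 controls measured 31.8, 30.3 and 36.1 CPM and treated libraries 20.7, 21.7 and 19.7 CPM (log2 -0.70 ± 0.10, adjusted p = 5.18e-05). In NGP the values were 33.6, 20.9 and 23.4 CPM, then 10.4, 10.0 and 9.62 CPM (-1.40 ± 0.18, adjusted p = 0.000576). LBR, a nuclear envelope protein with the same reductase activity and not 1 of the 38, was called in neither line. It changed 1.05-fold in SK-N-BE2 (adjusted p = 0.526) and 1.21-fold in NGP (adjusted p = 0.0591). In NGP all STM2457 libraries of LBR lay above all controls (189 ± 20.5 and 233 ± 1.59 CPM), as for 28.4% of all genes tested. There LBR was called in 1 of the 6 fits that left a library out.

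The final steps again rose, with 1 exception. EBP, the isomerase, overlapped between groups in both lines (log2 0.28 ± 0.14, adjusted p = 0.0964 in SK-N-BE2; 0.29 ± 0.24, adjusted p = 0.368 in NGP). It was called higher without the second SK-N-BE2 DMSO library (0.48, adjusted p = 0.00147) or without the first NGP DMSO library (0.66, adjusted p = 0.000764), and another counted gene on the same strand shares 36.4% of its exon length. SC5D, the desaturase, rose from 104, 104 and 95.5 CPM to 139, 140 and 138 CPM in SK-N-BE2 (0.42 ± 0.08, adjusted p = 0.000428). The NGP level rose from 19.4, 23.4 and 21.1 CPM to 36, 32.7 and 35.1 CPM (0.68 ± 0.12, adjusted p = 0.00225). DHCR7, the last reductase before cholesterol in one branch, rose from 70.0, 74.4 and 76.4 CPM to 235, 205 and 227 CPM in SK-N-BE2 (1.56 ± 0.09, adjusted p = 1.31e-08) and from 45.3, 43.8 and 47.4 CPM to 87.0, 84.5 and 85.2 CPM in NGP (0.89 ± 0.09, adjusted p = 0.00018).

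**Figure D2:**
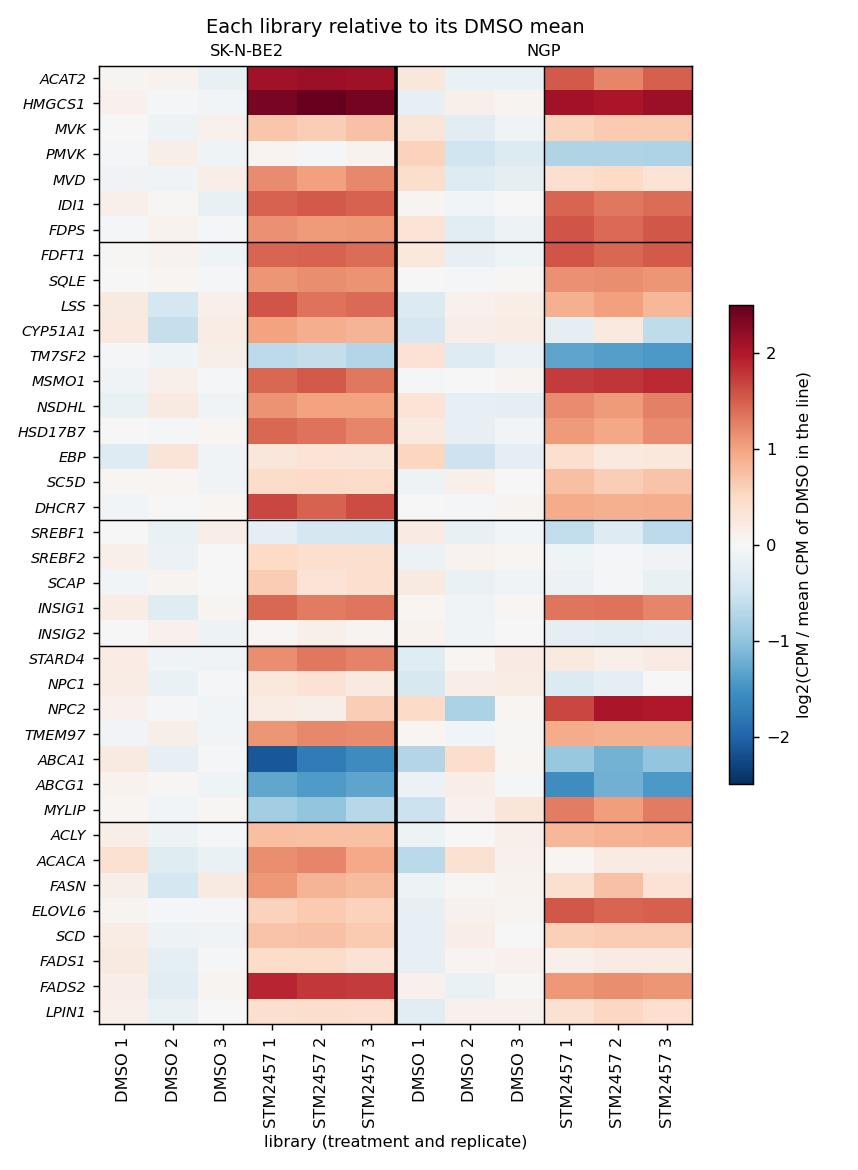
Log2 ratio of each library's CPM to the mean CPM of the DMSO libraries of its line, for the 38 genes in pathway order (rows) and the 12 libraries (columns); red is higher and blue lower, and black lines separate gene groups, treatments and lines. The 3 STM2457 libraries of a line look alike, HMGCS1 is the darkest red row, ABCA1 and ABCG1 are blue in both lines, and MYLIP is blue in SK-N-BE2 and red in NGP.

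Because these enzymes moved together, their promoters were read for 3 motifs that sterol-gene promoters are known for: the sterol response element TCACNCCAC, the NF-Y box CCAAT, and the E-box CACGTG. RefSeq promoters (GRCh38.p14, 250 bases before to 50 after a start) were at hand for 33 of the 38 genes, 46 promoters in all, and each motif was searched on both strands. CCAAT stood in 27 of the 46 (58.7%) and in 15 of the 20 promoters of mevalonate and sterol enzymes (75%), against 34.6% of all 35116 promoters. CACGTG stood in 6 of 46 (13%), against 7.26% of all. TCACNCCAC stood in 1 of 46 (2.17%), that of SREBF2, 133 bases before the start, against 1.13% of all. A match is a description of the letters, and the absence of one says nothing about binding. The stretches shown belong to 4 enzymes with several boxes or with the largest change: HMGCS1 (chr5:43313513-43313662, minus strand), MVD (chr16:88663162-88663297, minus strand), MSMO1 (chr4:165327517-165327666, plus strand) and NSDHL (chrX:152830817-152830966, plus strand). They run 5′ to 3′ on the gene's strand and lie upstream of its first exon. Capitals mark CCAAT, or ATTGG where the box is on the opposite strand.
HMGCS1: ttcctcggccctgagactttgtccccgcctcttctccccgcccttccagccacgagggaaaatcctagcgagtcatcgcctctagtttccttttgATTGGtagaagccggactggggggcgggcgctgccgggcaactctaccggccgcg
MVD: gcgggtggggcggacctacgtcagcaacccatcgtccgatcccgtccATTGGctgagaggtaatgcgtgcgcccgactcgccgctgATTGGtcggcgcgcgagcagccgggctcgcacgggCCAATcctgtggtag
MSMO1: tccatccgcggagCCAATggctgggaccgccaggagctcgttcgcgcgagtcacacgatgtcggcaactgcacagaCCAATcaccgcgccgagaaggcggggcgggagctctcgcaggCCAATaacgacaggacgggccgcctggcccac
NSDHL: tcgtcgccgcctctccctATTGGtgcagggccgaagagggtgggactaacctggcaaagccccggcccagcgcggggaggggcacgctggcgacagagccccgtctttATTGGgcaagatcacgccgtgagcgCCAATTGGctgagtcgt
The printed stretch of HMGCS1 holds 1 box, those of MVD and MSMO1 hold 3, and that of NSDHL holds 4, of which the last pair overlaps in a palindrome. MVD, with 3 boxes, was called higher in SK-N-BE2 alone, and its NGP change depended on 1 control library as given above.

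Of the 5 SREBP regulators, 3 rose and 1 fell in SK-N-BE2 (median log2 fold change 0.41), where 26.9% of all genes tested were called higher and 27.8% lower. For NGP, 1 rose and 1 fell (median -0.15), near the shares over all genes of 19.4% and 22.2%. With 5 genes these are given as counts only. INSIG1 (chr7:155297776-155310235, plus strand), the sterol-sensing anchor that is itself a target of SREBP, rose in both lines. It went from 23.9, 17.2 and 22.2 CPM to 56.8, 51.7 and 53.6 CPM in SK-N-BE2, 2.49-fold (1.32 ± 0.11, adjusted p = 7.33e-07). In NGP it went from 38.7, 35.3 and 38.8 CPM to 94.5, 95.9 and 87.8 CPM, 2.43-fold (1.28 ± 0.10, adjusted p = 4.06e-05). Its paralog INSIG2, which has the same anchoring role, did not pass the test in either line. INSIG2 measured 20.5, 22 and 18.9 CPM, then 20.8, 22.4 and 21.4 CPM in SK-N-BE2, where the groups overlapped (0.04 ± 0.10, adjusted p = 0.782). In NGP it measured 21.5, 19.1 and 20.2 CPM, then 17.3, 16.8 and 17.3 CPM, all treated libraries below all controls (-0.27 ± 0.11, adjusted p = 0.0805).

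The INSIG1 promoter carries 1 CCAAT box on the opposite strand, 170 bases before the start, in capitals in the stretch shown (chr7:155297628-155297775, plus strand), and an E-box outside that stretch, 55 bases before the start. For INSIG2 none of the 3 motifs was found.
INSIG1: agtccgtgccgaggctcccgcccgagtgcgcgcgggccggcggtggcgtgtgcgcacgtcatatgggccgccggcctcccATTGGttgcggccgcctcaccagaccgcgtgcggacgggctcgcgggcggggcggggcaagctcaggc

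The transcription factor genes went opposite ways in SK-N-BE2. SREBF1, which encodes the SREBP1 proteins tied mostly to fatty acid synthesis, fell from 107, 94.9 and 120 CPM to 91.7, 79.6 and 78.5 CPM (log2 -0.40 ± 0.10, adjusted p = 0.00327). In NGP it fell from 180, 138 and 149 CPM to 102, 125 and 99.5 CPM (-0.54 ± 0.13, adjusted p = 0.0117), a call lost without the first (adjusted p = 0.0594) or the third STM2457 library (adjusted p = 0.0587). SREBF1 counts cover both of its main isoforms, which gene counts do not separate. SREBF2, which encodes SREBP2, the main activator of sterol enzymes, rose in SK-N-BE2 from 301, 248 and 272 CPM to 385, 368 and 364 CPM (0.41 ± 0.09, adjusted p = 0.00162). Its NGP libraries overlapped, with 389, 460 and 445 CPM against 399, 425 and 406 CPM (-0.10 ± 0.10, adjusted p = 0.451), and without the first control it was called lower (-0.17, adjusted p = 0.0361). SCAP, the escort of both precursors, had a similar pattern, with a rise from 61.9 ± 2.96 to 85.7 ± 8.85 CPM in SK-N-BE2 (0.43 ± 0.09, adjusted p = 0.00124) and 88.1 ± 13.2 against 80.9 ± 3.64 CPM in NGP (-0.15 ± 0.12, adjusted p = 0.36).

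**Figure D3:**
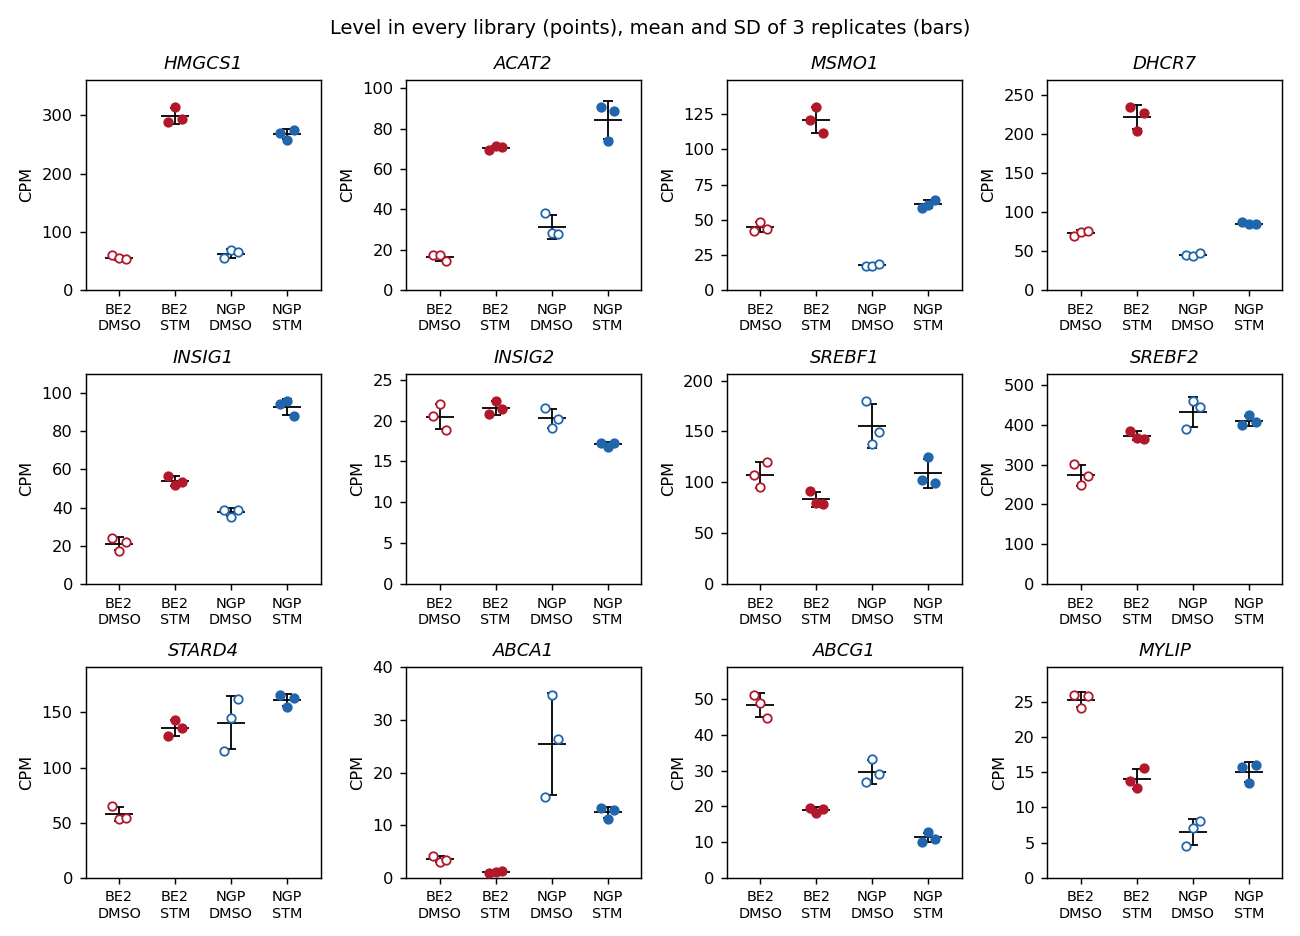
CPM of 12 genes in every library (points; open for DMSO, filled for STM2457; SK-N-BE2, written BE2, red and NGP blue) with the mean and SD of 3 replicates (black bars), each axis starting at 0. HMGCS1, ACAT2, MSMO1, DHCR7 and INSIG1 are separated upward in both lines, ABCG1 and ABCA1 downward, and MYLIP falls in SK-N-BE2 and rises in NGP.

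Of the 7 uptake, transport and efflux genes, 2 rose and 3 fell in SK-N-BE2, where 26.9% of all genes tested were called higher and 27.8% lower. In NGP 3 rose and 2 fell, where the shares over all genes were 19.4% and 22.2%. With 7 genes these are given as counts only. The efflux pumps fell in both lines. ABCG1 (chr21:42199689-42297244, plus strand), which hands cholesterol to lipoproteins, fell from 51.2, 48.9 and 44.6 CPM to 19.5, 18.1 and 19.2 CPM in SK-N-BE2 (log2 -1.39 ± 0.09, adjusted p = 7.31e-08). In NGP it fell from 26.7, 33.2 and 28.9 CPM to 10.1, 12.8 and 10.9 CPM (-1.42 ± 0.14, adjusted p = 0.000138). ABCA1 (chr9:104781006-104928155, minus strand), which loads cholesterol onto lipid-poor apolipoprotein, was scarce in SK-N-BE2, where it fell from 4.16, 3.06 and 3.42 CPM to 0.812, 1.05 and 1.20 CPM (-1.83 ± 0.23, adjusted p = 2.19e-05). NGP had more, with 15.4, 34.8 and 26.3 CPM against 13.2, 11.2 and 12.9 CPM (-1.06 ± 0.26, adjusted p = 0.0121). Its NGP controls were spread widely, and the call was lost without the second STM2457 library (adjusted p = 0.0562).

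MYLIP (chr6:16129086-16148248, plus strand), also called IDOL, is an LXR target whose protein marks lipoprotein receptors for degradation, and it went opposite ways. In SK-N-BE2 it fell with the pumps, from 26, 24.1 and 25.8 CPM to 13.8, 12.8 and 15.6 CPM (log2 -0.88 ± 0.10, adjusted p = 1.24e-05). In NGP it rose from 4.49, 7.08 and 8.01 CPM to 15.8, 13.4 and 16 CPM (1.18 ± 0.21, adjusted p = 0.00283). The treated levels of MYLIP were thus alike in the lines, and the control levels were far apart. Of the LXR genes themselves, outside the 38, NR1H3 fell 1.39-fold in SK-N-BE2 (adjusted p = 0.0105; 0.0598 without the third STM2457 library), with no call in NGP (adjusted p = 0.692), and NR1H2 was called in neither line (adjusted p = 0.235 and 0.206).

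The promoter stretches of ABCA1 (chr9:104928156-104928305, minus strand), MYLIP (chr6:16128936-16129085, plus strand) and STARD4 (chr5:111512591-111512740, minus strand) are shown because these genes parted from the enzymes or between the lines. Capitals mark the E-box CACGTG in ABCA1, and CCAAT or its reverse ATTGG in the others.
ABCA1: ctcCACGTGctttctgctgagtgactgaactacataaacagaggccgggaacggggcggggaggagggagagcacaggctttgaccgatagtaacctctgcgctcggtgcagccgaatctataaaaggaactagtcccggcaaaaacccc
MYLIP: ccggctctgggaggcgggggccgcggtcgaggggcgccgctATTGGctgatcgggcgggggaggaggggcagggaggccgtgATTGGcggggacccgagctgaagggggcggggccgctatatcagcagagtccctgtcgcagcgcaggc
STARD4: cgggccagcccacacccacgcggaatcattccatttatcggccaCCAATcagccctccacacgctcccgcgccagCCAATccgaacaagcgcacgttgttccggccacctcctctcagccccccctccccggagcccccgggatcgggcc
ABCA1 holds 1 E-box and no CCAAT, while MYLIP and STARD4 hold 2 CCAAT boxes each. TM7SF2, called lower in both lines, also had a CCAAT box, on the opposite strand 74 bases before its start. CCAAT thus stood before genes that rose and before genes that fell in SK-N-BE2.

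STARD4, a soluble carrier that moves cholesterol between membranes, rose in SK-N-BE2 from 65.3, 53.5 and 54.3 CPM to 129, 143 and 136 CPM (log2 1.20 ± 0.09, adjusted p = 2.96e-07). NGP controls were already at 115, 145 and 162 CPM and overlapped the treated values of 166, 155 and 163 CPM (0.17 ± 0.13, adjusted p = 0.329). TMEM97, an endoplasmic reticulum protein that binds sterols and the lysosomal transporter NPC1, rose in both lines. It went from 44, 51.0 and 43.9 CPM to 100, 106 and 105 CPM in SK-N-BE2 (1.13 ± 0.09, adjusted p = 3.06e-07). In NGP it went from 153, 141 and 151 CPM to 281, 273 and 274 CPM (0.87 ± 0.09, adjusted p = 0.000132), a level that is uncertain because 12.3% of its exon length is shared with IFT20 on the other strand and it has 2 pseudogenes.

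Of the lysosomal pair that releases cholesterol from lipoproteins, only NPC2 in NGP was called. In SK-N-BE2 all STM2457 libraries of both genes lay above all controls, as for 33.2% of all genes tested. NPC1 was called in neither line (log2 0.25 ± 0.11, adjusted p = 0.0758 in SK-N-BE2; -0.22 ± 0.17, adjusted p = 0.335 in NGP). It was called higher without the first SK-N-BE2 control (0.35, adjusted p = 0.0147) and lower without the first NGP control (-0.39, adjusted p = 0.00865). NPC2, the soluble partner, was near the lower end of what was counted: 1.23, 0.509 and 0.914 CPM in the NGP controls and 2.8, 3.62 and 3.55 CPM with STM2457, a 3.69-fold rise (1.88 ± 0.32, adjusted p = 0.00207). In SK-N-BE2 it measured 3.09 ± 0.197 and 3.89 ± 0.740 CPM (0.29 ± 0.19, adjusted p = 0.201).

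All 8 fatty acid and lipid enzymes rose in SK-N-BE2 (median log2 fold change 0.69), and 6 of 8 rose in NGP (median 0.54), with 0 called lower in either line. The median was smaller than that of the mevalonate and sterol enzymes in each line, and these differences between groups of genes were not tested. Of all genes tested, 26.9% (SK-N-BE2) and 19.4% (NGP) were called higher, and 27.8% and 22.2% lower. Per kilobase of exon, SCD and ACLY had the highest control levels of the 38 genes in both lines. SCD stood at 136 (SK-N-BE2) and 99.9 (NGP) CPM per kilobase, and ACLY at 101 and 118. The level of SCD is uncertain to the extent that its pseudogene takes reads. HMGCS1 started at 8.40 and 9.45 CPM per kilobase and reached 45.1 and 40.3.

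ACLY, which makes cytosolic acetyl-CoA from citrate and so feeds both pathways, rose from 585, 480 and 513 CPM to 887, 873 and 878 CPM in SK-N-BE2 (log2 0.70 ± 0.09, adjusted p = 3.2e-05). Its NGP level rose from 565, 614 and 673 CPM to 1095, 1126 and 1157 CPM (0.84 ± 0.10, adjusted p = 0.000336). ACACA, the carboxylase that commits acetyl-CoA to fatty acids, rose in SK-N-BE2 from 82.9, 51.8 and 56.4 CPM to 143, 149 and 123 CPM (1.08 ± 0.14, adjusted p = 3.32e-05). Its NGP libraries overlapped, with 107, 220 and 183 CPM against 175, 197 and 197 CPM (0.13 ± 0.23, adjusted p = 0.68), and the sign turned without the first control (-0.12, adjusted p = 0.276). FASN, the synthase of palmitate, rose from 464, 312 and 491 CPM to 898, 759 and 728 CPM in SK-N-BE2 (0.88 ± 0.14, adjusted p = 0.000201) and from 733 ± 53.8 to 1040 ± 153 CPM in NGP (0.48 ± 0.12, adjusted p = 0.0149).

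Elongation and desaturation enzymes followed, by different amounts. ELOVL6, which extends palmitate, rose from 74.5, 69.7 and 70.0 CPM to 106, 112 and 107 CPM in SK-N-BE2 (log2 0.56 ± 0.08, adjusted p = 3.84e-05). The rise was larger in NGP, from 28.2, 34.9 and 34 CPM to 95.0, 88.7 and 91.0 CPM (1.47 ± 0.12, adjusted p = 4.52e-05), where it brought ELOVL6 near the SK-N-BE2 level. SCD, the desaturase that makes oleate, rose from 810, 652 and 671 CPM to 1165, 1184 and 1123 CPM in SK-N-BE2 (0.67 ± 0.10, adjusted p = 8.95e-05). NGP libraries rose from 453, 589 and 530 CPM to 788, 813 and 813 CPM (0.59 ± 0.11, adjusted p = 0.00374). FADS2, the first desaturase of polyunsaturated fatty acids, rose from 114, 85.0 and 107 CPM to 380, 349 and 341 CPM in SK-N-BE2, 3.40-fold (1.77 ± 0.11, adjusted p = 3.22e-08). In NGP it rose from 210, 174 and 198 CPM to 412, 432 and 416 CPM, 2.13-fold (1.09 ± 0.10, adjusted p = 9.19e-05). Its neighbour FADS1, the next desaturase, rose less in SK-N-BE2, from 105 ± 17.3 to 141 ± 5.85 CPM (0.40 ± 0.10, adjusted p = 0.00585), while NGP showed no called change (438 ± 49.9 and 498 ± 14.8 CPM, 0.16 ± 0.11, adjusted p = 0.264). LPIN1, a phosphatidate phosphatase of triglyceride and phospholipid synthesis, rose 1.30-fold in SK-N-BE2 (0.38 ± 0.09, adjusted p = 0.00235) and 1.34-fold in NGP (0.42 ± 0.12, adjusted p = 0.0223). The NGP call of LPIN1 was lost without any 1 STM2457 library (adjusted p 0.0615 to 0.0692), and with exon-length offsets its SK-N-BE2 change was 0.25 (adjusted p = 0.00766).

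Whether a response differed between the lines was tested over all 12 libraries as the SK-N-BE2 change minus the NGP change. Of the 38 genes, 14 were called, 10 with the more positive change in SK-N-BE2 and 4 in NGP, where 30.9% of all 14731 genes tested were called (17% and 13.9%). The called genes are 14 of 38, a share near that background. A difference of line cannot be separated from one of dose or of the inferred run. MYLIP had the largest difference (log2 -2.05 ± 0.24 SE, adjusted p = 3.04e-05), with every treated library moving down in SK-N-BE2 and up in NGP. NPC2 (-1.58 ± 0.37, adjusted p = 0.00528) and ELOVL6 (-0.90 ± 0.13, adjusted p = 0.000141) also changed more positively in NGP. STARD4 had a more positive change in SK-N-BE2 (1.04 ± 0.17, adjusted p = 0.000387), as did DHCR7 (0.69 ± 0.11, adjusted p = 0.000468), FADS2 (0.69 ± 0.15, adjusted p = 0.00389), SREBF2 (0.52 ± 0.13, adjusted p = 0.00804), ACAT2 (0.69 ± 0.18, adjusted p = 0.0102) and SCAP (0.59 ± 0.15, adjusted p = 0.0102). These 9 differences were called whichever library was left out.

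The other 5 differences depended on single libraries. TM7SF2 fell less in SK-N-BE2 (difference 0.71 ± 0.21, adjusted p = 0.0201), a call lost without the second SK-N-BE2 DMSO library (adjusted p = 0.0504). MVD (0.72 ± 0.23, adjusted p = 0.0296), CYP51A1 (1.09 ± 0.36, adjusted p = 0.0333), ACACA (0.96 ± 0.31, adjusted p = 0.0279) and MSMO1 (-0.37 ± 0.13, adjusted p = 0.0405) were called in 6, 4, 5 and 5 of the 12 fits that left a library out. MVD lost its call without the first or second SK-N-BE2 DMSO library or the first or the third STM2457 library of either line (highest adjusted p = 0.068). CYP51A1 lost it without the second SK-N-BE2 DMSO library, any SK-N-BE2 STM2457 library, the second or the third NGP DMSO library, or the first or the third NGP STM2457 library (highest 0.0791). ACACA lost it without the second or the third DMSO library of either line, the first or second SK-N-BE2 STM2457 library, or the first NGP STM2457 library (highest 0.0802). MSMO1 lost it without the second DMSO library of either line, the first or the third SK-N-BE2 STM2457 library, or any NGP STM2457 library (highest 0.115). Without the first NGP control, the differences of MVD and TM7SF2 were 0.42 and 0.47. HMGCS1 was not called (difference 0.33, 95% interval 0.07 to 0.59, adjusted p = 0.0732), nor was ABCA1 (-0.76, interval -1.47 to -0.06, adjusted p = 0.125), nor PMVK (0.79, interval 0.22 to 1.37, adjusted p = 0.055). The intervals are not adjusted for the number of genes. Leaving out the first NGP control gave 14 genes with the more positive change in SK-N-BE2 and 5 in NGP, where 21.6% and 20.4% of all genes tested were called. Without the first NGP control, HMGCS1 (0.41, adjusted p = 0.00612), PMVK (0.36, adjusted p = 0.0444), FDPS (-0.63, adjusted p = 0.000431), LSS (0.65, adjusted p = 0.0105) and NPC1 (0.63, adjusted p = 0.00532) were called. Without the second NGP control, ABCA1 (-1.05, adjusted p = 0.0218) and PMVK (0.99, adjusted p = 0.0106) were. PMVK was also called without the third NGP control (0.94, adjusted p = 0.0318).

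**Figure D4:**
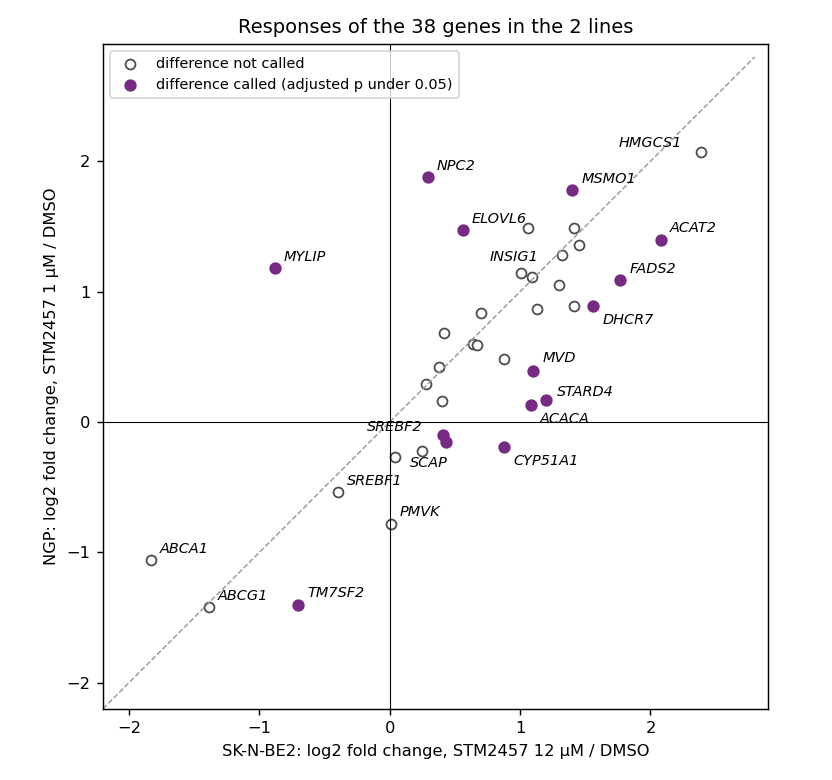
Log2 fold change of each of the 38 genes in SK-N-BE2 at 12 µM (x axis) and NGP at 1 µM (y axis); the dashed line marks equal change, and filled points had a difference between lines with an adjusted p under 0.05. Most genes lie in the upper right corner, MYLIP lies alone at the upper left with -0.88 and 1.18, and STARD4, ACACA and MVD lie near 1 on the x axis and under 0.5 on the y axis.

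A second list of 44 genes from the surrounding pathways was read the same way. In SK-N-BE2, 17 of 44 rose and 12 fell (median log2 fold change -0.05), where 26.9% and 27.8% of all genes tested were called higher and lower. In NGP, 14 of 43 tested rose and 8 fell (median 0.27), where the shares over all genes were 19.4% and 22.2%. The falls were thus near the background in both lines, and the small groups that follow are given as counts only. Fatty acid activation, elongation and lipid assembly had 8 of 12 higher and 2 lower in SK-N-BE2 and 7 of 12 higher and 0 lower in NGP. Genes of SREBP processing and reductase turnover had 1 of 7 higher and 3 lower in SK-N-BE2 and 1 higher and 4 lower in NGP. The isoprenoid branches had 2 of 8 higher and 2 lower in each line. Of the genes that supply acetyl-CoA, citrate and NADPH, 1 of 6 rose and 3 fell in SK-N-BE2, and 1 of 5 rose and 1 fell in NGP. Sterol esterification, transport and LXR genes had 5 of 11 higher and 2 lower in SK-N-BE2, and 3 higher and 1 lower in NGP.

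The largest called changes of that list in SK-N-BE2 were in SCD5, the second human stearoyl-CoA desaturase (4.14-fold higher, adjusted p = 2.26e-08), IDH1, a cytosolic source of NADPH (4.02-fold lower, adjusted p = 6.28e-09), and ACSL4, an acyl-CoA synthetase that prefers arachidonate (2.1-fold higher, adjusted p = 1.63e-06). In NGP they were in ACSS2, which makes acetyl-CoA from acetate (2.42-fold higher, adjusted p = 0.000586), SOAT1, which esterifies cholesterol for storage (1.80-fold higher, adjusted p = 0.000961), and COQ2, an enzyme of coenzyme Q synthesis (1.78-fold higher, adjusted p = 0.00792).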

How the data were processed

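Polyadenylated RNA of 2 cell lines was sequenced, with 3 libraries for each line and treatment, and the titles gave each library's line, treatment and replicate. The authors used featureCounts 2.0.5 (paired mode, exons), per the file headers, to count reads of protein-coding genes of GENCODE 33 by gene name. The deposited values are whole-number counts, not normalized. No strand option, multi-mapping reads or counting of pairs was requested, so antisense reads can be included, genes with close copies lose reads, and a fragment can add up to 2. Per the submitters' processing notes, FastQC 0.11.5, Trimmomatic 0.36, HISAT2 2.1.0, featureCounts and Subread 1.5.3 were used on GRCh38. That Subread version differs from the one in the headers.

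Counts were fitted with edgeR 4.0.16 in R 4.3.3: filterByExpr with a minimum count of 10, TMM scaling, the quasi-likelihood test, and Benjamini-Hochberg adjustment over all genes tested at a threshold of 0.05. Each line was fitted on its own 6 libraries, and the difference between lines as a contrast over all 12. Fold changes come from these fits. CPM values are on the TMM scale of all 12 libraries and SDs are over 3 replicates. Standard errors are the log2 fold change divided by the square root of its F statistic. Without spike-ins, changes are relative to the rest of the RNA.

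Alternatives were DESeq2 size factors or upper-quartile factors within edgeR, no filter, DESeq2 1.42.0, a replicate block, leaving out each library, halved counts and, for the line results, a joint fit. Offsets that remove each library's trend with exon length in 20 bins were added after seeing the data. The fitting script was tested on simulated counts. Exon sharing was measured in GENCODE 44, and genes with over 10% shared or with named pseudogenes are called uncertain.

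The 38 genes, the 44 others, the markers and the motifs were chosen with earlier results of these data known. Values of each library are given for genes called with a log2 fold change of 0.5 or more in size in that line, and for INSIG1, INSIG2, SREBF1 and SREBF2. Of the 44 others, the 3 largest called changes per line are named; LBR, NR1H2 and NR1H3, also on that list, are named after their values were seen. Depth was 47242379 to 58159937 reads per library, so for most of these genes the spread of 3 replicates, not counting error, limits precision. Some genes of the lists are not reported here.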

Additional observations from a re-analysis of the deposited data

Results flagged for a closer look

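In 14 of the 38 genes the response to STM2457 differed between the lines by the test of the difference itself. Differences are SK-N-BE2 minus NGP, log2, at an edgeR adjusted p under 0.05, with n = 3 libraries a group. Of all 14731 genes tested, 30.9% were called, so the share among the 38 was near the background. The change was more positive in SK-N-BE2 for CYP51A1 (1.09), STARD4 (1.04), ACACA (0.96), MVD (0.72), TM7SF2 (0.71), ACAT2 (0.69), DHCR7 (0.69), FADS2 (0.69), SCAP (0.59) and SREBF2 (0.52). It was more positive in NGP for MYLIP (-2.05), NPC2 (-1.58), ELOVL6 (-0.90) and MSMO1 (-0.37). The calls of CYP51A1, ACACA, MVD, TM7SF2 and MSMO1 depended on single libraries, as given above. For TM7SF2 both changes were falls, and for MYLIP they had opposite signs and were called in each line. These differences mix line with dose and with the inferred run, and their parts cannot be separated. No gene's single libraries were tested as outliers, since the groups held 3 libraries.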

How the results depend on the processing

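Under all alternatives, 1407 of 1482 values (38 genes in each line, and the 22 genes whose difference between lines was called or at least 0.3 in size) kept their direction and their side of the threshold, 43 lost the call, 24 gained one, and 8 turned in sign, none of the 8 called. In SK-N-BE2 no call was lost under any alternative run. The turned signs were near 0: with upper-quartile factors PMVK was -0.04 and INSIG2 -0.02 in SK-N-BE2, and leaving out single libraries gave -0.05 to 0.09 for PMVK, -0.02 to 0.09 for INSIG2 and, in NGP, -0.12 to 0.36 for ACACA. Leaving out libraries gave 3 to 7 genes called lower in NGP, against 5, where 14.9% to 29.7% of all genes tested were. Over all genes tested in NGP the number called higher went from 2644 to 1759 without the first STM2457 library. Without the first DMSO library it went to 3805, and the number called lower went from 3027 to 4092. Of the 44 other genes, 13 to 17 were called higher and 11 to 14 lower in SK-N-BE2, and 11 to 21 higher and 6 to 10 lower in NGP. Over all genes tested, 22.5% to 27.8% were called higher and 20.6% to 31.1% lower in SK-N-BE2. For NGP these shares were 12.8% to 27.6% and 14.9% to 29.7%. With exon-length offsets EBP was called in SK-N-BE2 (0.40, adjusted p = 0.0072) and INSIG2 in NGP (-0.27, adjusted p = 0.0388), and the difference of MSMO1 was lost (adjusted p = 0.0854) while those of HMGCS1 (0.30), PMVK (0.87), FDPS (-0.40), NPC1 (0.45) and ABCA1 (-0.88) were gained. Without the filter the difference of MSMO1 was lost (adjusted p = 0.0771) and that of PMVK gained (adjusted p = 0.039), the latter also with DESeq2 (adjusted p = 0.0342). The causes were not tested. Same-numbered replicates did not deviate together (correlations of -0.138, 0.131 and 0.0232 for SK-N-BE2 pairs; 0.00625, -0.188 and 0.0827 for NGP pairs), so the numbers were not taken as pairs. With a replicate block, 29 genes were called higher and 5 lower in SK-N-BE2, where 26.5% and 27.1% of all genes tested were. EBP was the gene added (0.30, adjusted p = 0.0423). In NGP the replicate block gave 23 and 5, against 17.5% and 19.5% of all genes tested. With the block the difference of MSMO1 was lost (adjusted p = 0.0531). Low counts limit ABCA1 in SK-N-BE2, NPC2 in NGP and CYP51A1 in both lines.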
